A study of Homo sapiens with 6 samples.

Results

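The genes described are secreted signals that draw in white blood cells, neutrophils above all, and the interleukin-1 cytokines that induce them. They comprise the CXC chemokines CXCL1, CXCL2, CXCL3, CXCL5, CXCL6 and CXCL8, the CC chemokines CCL2 and CCL20, and the cytokines IL1A and IL1B. They are 10 of the 19775 genes that a probe set of their own names on the array, and they are read by 17 of its 54613 probe sets. The genes were chosen by name with earlier results of the same comparison known, so the chemokine and IL1 signals were themselves among the values that the members were selected on, and the differences given for them here are a description with no test. Cells labelled HepG2, a human liver cancer line, were transfected with Lipofectamine and harvested 48 h later. In 3 samples the RNA interference duplex was an RNF43 siRNA, 1 sequence directed at the mRNA of RNF43, a membrane ubiquitin ligase that lowers Frizzled receptors at the cell surface. In the other 3 it was a negative control siRNA of 1 sequence. Both groups therefore carried a duplex and the transfection reagent, both grew in DMEM with fetal bovine serum, and with a single duplex in each group the effect of that duplex and the effect of its target cannot be told apart. From 6 µg of total RNA, labelled RNA was hybridised to 1 Affymetrix HG-U133 Plus 2.0 array per sample. The labels call the 3 arrays of a group biological replicates without saying how they were kept apart. The p-values below therefore weigh differences against the spread between these arrays alone.

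CXC chemokines that carry a glutamate-leucine-arginine motif before their paired cysteines attract neutrophils through the receptors CXCR1 and CXCR2. All 6 CXC members belong to that class. IL1A and IL1B bind the shared receptor IL1R1, which recruits IL1RAP and signals through MYD88, IRAK kinases and TRAF6 to NF-kappaB and the MAP kinases, and NF-kappaB in turn raises transcription of the chemokine and IL1 genes. In liver, hepatocytes and other resident cells make these chemokines on exposure to IL1 or TNF, and cancer lines often make them without added cytokine. Messenger RNAs of the family are short-lived because AU-rich elements in them recruit decay factors.

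The signals were MAS5 values on a log2 scale, where a difference of 1 is a 2-fold change. A gene is read below on its leading probe set, the brightest of those that name it alone, and a gene entered the fit where that probe set's mean over the 6 arrays lay above 5.83, the median of all probe sets. Of 11853 genes tested with limma, 22.6% were called at a Benjamini-Hochberg adjusted p under 0.05. Array medians lay between 5.89 and 6.02. RNF43 itself went against its label. Its only probe set had 8.19, 8.22 and 8.41 on the arrays labelled RNF43 siRNA, against 7.65, 7.79 and 7.45 on the control arrays. RNF43 was thus 1.56-fold higher in the arrays labelled RNF43 siRNA (log2 difference 0.64 ± 0.14 SE, limma adjusted p = 0.0098), and every direction below is by label. The cell type label was also not borne out by its markers. Of 8 measured hepatocyte markers, 7 lay below the filter, among them ALB with a mean of 4.21 and APOB with 4.36, and AFP lay above it at 6.71. Their summed linear signal was 208.9 to 304.0 on the arrays labelled RNF43 siRNA and 316.0 to 438.2 on the control arrays. All 11 neutrophil markers and all 9 measured macrophage and monocyte markers lay below the filter, and no marker of any list was at 0 on every array. Of 6 endothelial markers 1 lay above it, and that list summed to 196.0 to 243.2 on the arrays labelled RNF43 siRNA and 174.6 to 193.6 on the control arrays. Of the fibroblast and stellate cell markers 5 of 8 lay above the filter, and COL3A1, DCN and ACTA2 were called lower (log2 differences -1.34, -0.54 and -0.99). That list summed to 11643 to 12806 on the arrays labelled RNF43 siRNA, against 14650 to 14913 on the control arrays. Most of that sum is LUM, with a mean of 13.26, which was not called (log2 difference -0.18, limma adjusted p = 0.0926). The sum was lower like CXCL1, CXCL2, CXCL8, CCL2 and IL1A below, and the part of these marker lists in the members' differences was not tested.

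The 6 CXC members share a stretch of sequence just upstream of their starts, so the promoters of the members with the widest separation between the groups are printed first, with CXCL3 for comparison. The RefSeq promoter table (GRCh38.p14) held 9 of the 10 members, without CCL2, as windows of 300 bases running from 250 before the transcription start to 50 after it. Capitals mark GGAATTTCC, a kappaB sequence of the kind NF-kappaB binds, and TGANTCA, the core that AP-1 binds, and each window is written 5′ to 3′ on the gene's own strand. The windows are those of CXCL8 at chr4:73740319-73740618 (plus strand), CXCL1 at chr4:73869143-73869442 (plus), CXCL2 at chr4:74099146-74099445 (minus), CXCL3 at chr4:74038640-74038939 (minus) and IL1A at chr2:112784444-112784743 (minus).
CXCL8: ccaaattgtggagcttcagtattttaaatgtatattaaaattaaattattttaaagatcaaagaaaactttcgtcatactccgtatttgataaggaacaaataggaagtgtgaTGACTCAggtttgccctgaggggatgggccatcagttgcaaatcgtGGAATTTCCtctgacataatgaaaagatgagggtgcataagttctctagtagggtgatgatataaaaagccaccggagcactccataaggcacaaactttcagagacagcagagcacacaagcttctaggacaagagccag
CXCL1: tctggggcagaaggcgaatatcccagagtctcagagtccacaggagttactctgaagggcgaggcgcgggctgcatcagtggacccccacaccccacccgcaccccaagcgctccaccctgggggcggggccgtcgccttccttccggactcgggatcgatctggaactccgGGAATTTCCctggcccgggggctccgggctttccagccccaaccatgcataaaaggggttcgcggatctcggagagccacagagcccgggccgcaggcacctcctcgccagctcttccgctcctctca
CXCL2: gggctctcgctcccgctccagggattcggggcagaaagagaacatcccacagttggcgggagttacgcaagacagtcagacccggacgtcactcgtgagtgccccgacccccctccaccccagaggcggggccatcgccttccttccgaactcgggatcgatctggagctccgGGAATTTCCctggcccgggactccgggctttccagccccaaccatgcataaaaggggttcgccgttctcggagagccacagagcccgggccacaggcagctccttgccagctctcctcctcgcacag
CXCL3: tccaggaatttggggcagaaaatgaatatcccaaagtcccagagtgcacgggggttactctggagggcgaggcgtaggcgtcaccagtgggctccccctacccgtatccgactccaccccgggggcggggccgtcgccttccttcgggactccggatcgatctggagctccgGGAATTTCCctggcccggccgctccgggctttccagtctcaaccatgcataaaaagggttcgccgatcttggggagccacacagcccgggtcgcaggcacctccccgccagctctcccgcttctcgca
IL1A: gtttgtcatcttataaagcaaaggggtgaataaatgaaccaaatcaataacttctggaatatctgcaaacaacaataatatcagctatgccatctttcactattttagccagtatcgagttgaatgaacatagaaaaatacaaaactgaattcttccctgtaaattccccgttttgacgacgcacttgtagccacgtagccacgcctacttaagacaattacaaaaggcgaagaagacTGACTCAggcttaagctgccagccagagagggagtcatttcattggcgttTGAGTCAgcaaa

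The letters GGAATTTCC, searched on both strands, were in the windows of all 6 CXC members and in none of the windows of CCL20, IL1A and IL1B, and 0.461% of the 35116 promoter windows in the table held them. Their first base lay 78, 77 and 78 bases before the start in CXCL1, CXCL2 and CXCL3, 90 and 89 bases before it in CXCL5 and CXCL6, and 91 bases before it in CXCL8. A longer kappaB form, GGGAN followed by TTTCC, overlapped the same place in 5 of the 6, all but CXCL8, and was in 0.558% of windows. TGANTCA was in CXCL8, 137 bases before the start, and in the printed IL1A window, 12 bases before the start and again from base 39 after it, and 7.71% of windows held it. TATAAA, the core of the TATA box, was in CXCL8 at 31 bases before the start, in CCL20 at 29 and in the printed IL1A window at 239, and in 11.5% of windows. The table holds a second IL1A window, counted from another start, in which TGANTCA lay 105 and 55 bases before the start and TATAAA was not found. In global alignments of whole windows with gaps allowed, CXCL1 and CXCL3 were identical in 82.5% of aligned columns, CXCL2 and CXCL3 at 73.7%, CXCL1 and CXCL2 at 69.8%, and CXCL5 and CXCL6 at 83.1%, while CXCL8 matched the others at 43.0% to 44.7%. These matches are in reference sequence and say nothing of which factor was bound in these cells.

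CXCL1, CXCL2 and CXCL3 are close paralogs that bind CXCR2, and their levels by label differed among them. CXCL1 had log2 signals of 7.91, 8.23 and 8.33 on arrays 1 to 3 labelled RNF43 siRNA, against 9.54, 9.45 and 9.59 on control arrays 1 to 3. The groups were more than 1 log2 unit apart at their nearest values, and the mean was 2.58-fold lower with the RNF43 siRNA label (8.16 ± 0.22 against 9.52 ± 0.07, SD, n = 3 each; log2 difference -1.37 ± 0.13 SE). As these are bulk samples, fewer cells that make a transcript and less of it per cell cannot be told apart. CXCL2 had 8.99, 8.98 and 8.95 on the arrays labelled RNF43 siRNA and 10.02, 9.96 and 9.86 on the control arrays. Its groups did not overlap either, and the spread within each was small beside the log2 difference of -0.97 ± 0.05 SE, a mean 1.96-fold lower. CXCL2 has 2 further probe sets, both below the filter and both with overlapping groups. They had log2 differences of -0.71 ± 0.91 SE and -0.02 ± 1.21 SE, and averaging the 3 probe sets brought the CXCL2 difference to -0.57. CXCL3 had 5.69, 7.13 and 7.31 on the arrays labelled RNF43 siRNA, against 6.55, 7.03 and 7.42 on the control arrays. Its groups overlapped, with array 1 lowest in each, and the log2 difference of -0.29 had an SE of 0.57, so it was smaller than the spread between arrays. The CXCL2 leading probe set carries the _x_at ending that Affymetrix gives to probe sets with probes matching other transcripts, and with paralogs this alike its signal can include them.

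CXCL8, also called interleukin-8, binds CXCR1 and CXCR2, and its 2 probe sets gave like differences. On the brighter it had 9.23, 9.69 and 9.63 on the arrays labelled RNF43 siRNA, against 10.51, 10.53 and 10.94 on the control arrays. On the other it had 7.87, 7.998 and 7.87 with the RNF43 siRNA label and 9.07, 9.09 and 9.19 with the control label. Neither probe set's groups overlapped. The brighter ends in _x_at, like the leading CXCL2 probe set, and the other in _s_at. The means were 2.21-fold lower (log2 difference -1.15 ± 0.20 SE) and 2.31-fold lower (-1.21 ± 0.06 SE) with the RNF43 siRNA label. CXCL5 and CXCL6 are a further pair of close paralogs that attract neutrophils, and neither was read above the filter. The leading CXCL5 probe set had 3.37, 3.65 and 3.82 on the arrays labelled RNF43 siRNA, against 2.77, 1.40 and 4.38 on the control arrays. Its 2 other probe sets each had at least 1 array listed at 0, with values of 0.00 to 3.12 on the arrays labelled RNF43 siRNA and 0.00 to 3.55 on the control arrays. The CXCL6 probe set had 0.00, 3.72 and 3.74 with the RNF43 siRNA label, against 1.36, 3.16 and 3.95 with the control label. No direction can be read for either gene, since all 4 probe sets lay below the filter with overlapping groups.

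CCL2, which attracts monocytes through CCR2, had 6.77, 6.96 and 6.81 on the arrays labelled RNF43 siRNA, against 7.31, 7.26 and 7.13 on the control arrays. The groups did not overlap, though their nearest values were close, and the mean was 1.31-fold lower (log2 difference -0.39 ± 0.08 SE). The only CCL2 probe set ends in _s_at. CCL20, the ligand of CCR6 on dendritic cells and lymphocytes, had 3.36, 2.88 and 5.67 with the RNF43 siRNA label and 2.99, 3.23 and 4.69 with the control label. It lay below the filter, its groups overlapped, and array 3 was the highest in each.

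IL1A is active as an uncut precursor and acts as an alarm signal when cells are damaged, while IL1B must be cut by caspase-1 before it is active. IL1A had 8.37, 8.33 and 8.53 on the arrays labelled RNF43 siRNA, against 9.22, 9.19 and 9.13 on the control arrays. These groups were well separated, and the mean was 1.71-fold lower with the RNF43 siRNA label (log2 difference -0.77 ± 0.07 SE). A second, dimmer IL1A probe set ran the other way by its mean. It had 6.59, 6.51 and 5.41 on the arrays labelled RNF43 siRNA and 6.28, 6.03 and 4.93 on the control arrays, with overlapping groups and a log2 difference of 0.43 ± 0.56 SE, and the mean of both probe sets gave -0.17. The 2 IL1A probe sets thus disagree, and the lower value rests on the brighter, an _s_at probe set. IL1B had 8.76, 8.96 and 9.43 with the RNF43 siRNA label, against 9.07, 9.28 and 9.15 with the control label, and its groups overlapped. Its second probe set had 8.76, 8.93 and 8.98 with the RNF43 siRNA label and 9.11, 9.08 and 9.21 with the control label. There the groups did not overlap, and the mean was 1.18-fold lower (log2 difference -0.24 ± 0.08 SE), against -0.11 ± 0.21 SE on the brighter one. The plot of the leading probe sets by array shows the separate groups of CXCL1, CXCL2, CXCL8, CCL2 and IL1A beside the overlapping ones.

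**Figure D1:**
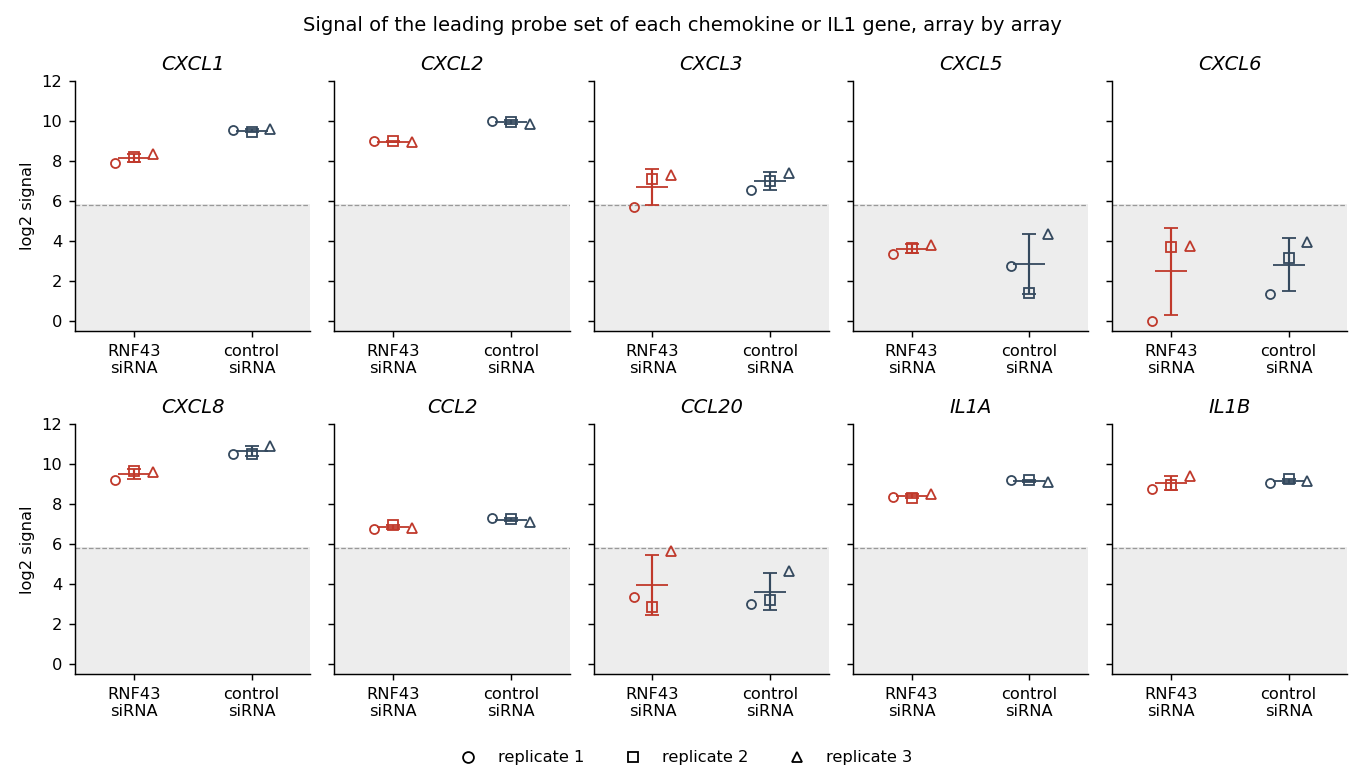
Log2 MAS5 signal of the leading probe set of each of the 10 members, with 1 symbol per array, a bar for the group mean, whiskers for the SD and shading below the filter, arrays labelled RNF43 siRNA left and control arrays right. CXCL1, CXCL2, CXCL8, CCL2 and IL1A have groups that do not overlap, and CXCL5, CXCL6 and CCL20 lie below the filter at 5.83. Levels of different genes come from different probes and are not comparable.

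Set out together, 7 of the 10 members had a leading probe set above the filter and 3 (CXCL5, CXCL6 and CCL20) had none above it. Groups did not overlap and lay lower with the RNF43 siRNA label for 5 leading probe sets, and for none higher. Of all genes tested, 19.8% had groups that did not overlap and lay lower, and since the members were chosen on this comparison nothing is read from setting those shares side by side. The fit across all genes called 4 members lower (CXCL1, CXCL2, CXCL8 and IL1A) and none higher, again with nothing read from it, where 11.1% of all genes tested were called lower and 11.5% higher. The median log2 difference over the 10 leading probe sets was -0.36. Over the 7 members above the filter it was -0.77, and over all genes tested, which passed the same filter, it was -0.003, and these medians too are a description of genes chosen on this comparison. The median over all 10 moved with single arrays and was -0.16 without array 1 labelled RNF43 siRNA, -0.61 without array 2, -0.71 without array 3 and -0.63 without control array 1. CXCL3, CXCL6, CCL20 and IL1B each had differences of either sign when single arrays were left out, and CXCL5 ranged from 0.04 to 1.53. For CXCL1, CXCL2, CXCL8, CCL2 and IL1A the difference stayed below 0 in all 6 such repeats, and CXCL8 ranged from -1.23 to -1.005.

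**Figure D2:**
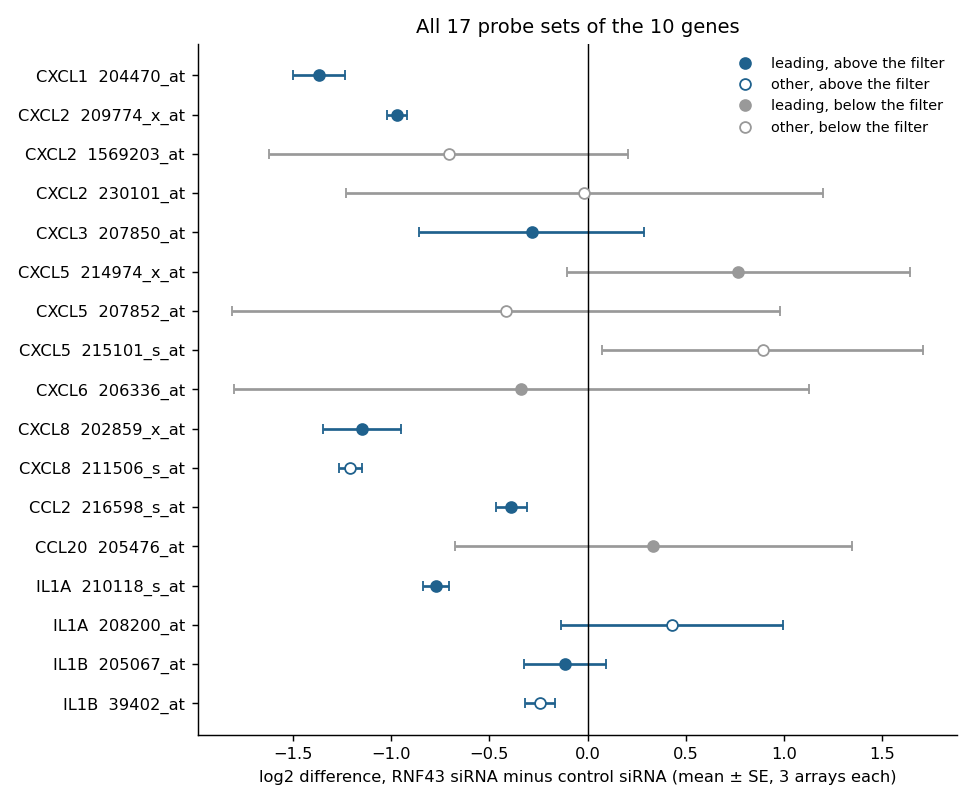
Log2 difference (arrays labelled RNF43 siRNA minus control arrays) with its SE for each of the 17 member probe sets, blue above the filter and grey below it, filled for the leading probe set. The CXCL1, CXCL8 and leading CXCL2 and IL1A probe sets lie below 0 with short error bars, while the second IL1A probe set lies at 0.43.

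The 6 CXC members lie within a run of 9 protein-coding genes on chromosome 4, all of them chemokine genes, in the order CXCL8, CXCL6, PF4V1, CXCL1, PF4, PPBP, CXCL5, CXCL3 and CXCL2. The 4 above the filter were CXCL8, CXCL1, CXCL3 and CXCL2. CXCL8, at one end, CXCL1, in the middle, and CXCL2, at the other end, had separate groups, while CXCL3, the neighbour of CXCL2, did not. The non-members of the run are the platelet chemokines PF4, PF4V1 and PPBP, and all 3 lay below the filter. The plot in chromosome order sets the members of the run side by side.

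**Figure D3:**
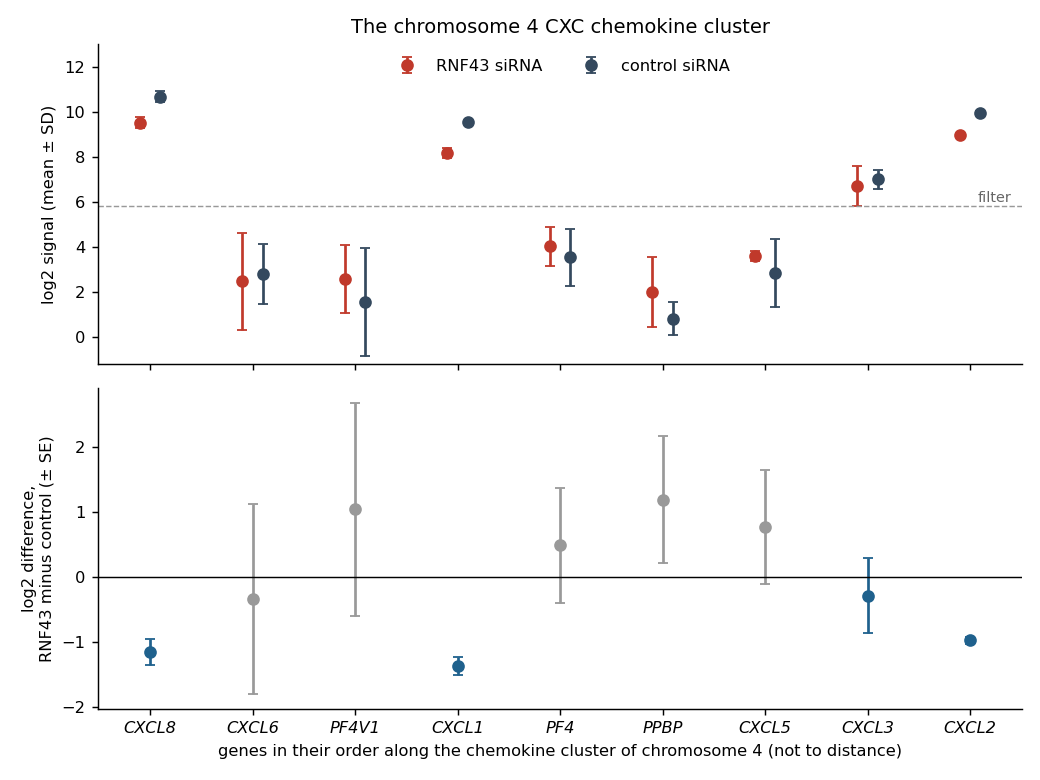
Log2 signal (mean ± SD of 3 arrays, top) and log2 difference (± SE, bottom) for the leading probe sets of the 9 chemokine genes of the chromosome 4 run in their order, arrays labelled RNF43 siRNA left of control arrays for each gene. CXCL8, CXCL1 and CXCL2 have separate groups, CXCL3 overlaps, and the 5 others lie below the filter at 5.83.

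Genes with a profile over the 6 arrays most like that of the members were found by Pearson's r with the mean of the 7 members above the filter, as a description, since all such profiles share the same 6 arrays and the same split. GORAB came first (r = 0.9988), then CNBD1 (0.9963), E2F6 (0.9957), ZNF766 (0.995) and RELB (0.9945). Their log2 differences were -0.28, -1.32, -0.45, -0.71 and -0.27. RELB, an NF-kappaB subunit, was not called (limma adjusted p = 0.103). With CXCL8 alone, the nearest were ZSCAN29 (0.9963), ABHD10 (0.9956), TMX3 (0.9953), FOXO3 (0.9948) and BMS1 (0.9943). The lists share no gene. Each of the 10 had lower values on every array labelled RNF43 siRNA than on any control array. Choosing genes by likeness to profiles split in that way all but fixes this, and nothing is read from it. Of all genes tested, 19.8% had such groups.

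On the receiving side, the listed chemokine receptors and an IL1 decoy receptor were at the low end of the range. CXCR1, CXCR2, CCR2, CCR6, ACKR1, ACKR2 and the decoy IL1R2 lay below the filter with means of 2.42 to 5.35. Of all genes tested, 22.6% were called, 11.1% lower and 11.5% higher, and no set test was run on this list or those below. Of 3 tested genes of the 10 listed as receptors and antagonists, 1 fell and 2 did not pass the test. The gene that fell was IL1R1, the signalling receptor for IL1A and IL1B. It had 7.79, 8.10 and 7.96 on the arrays labelled RNF43 siRNA, against 8.94, 9.22 and 9.06 on the control arrays. IL1R1 was 2.18-fold lower (log2 difference -1.13 ± 0.13 SE, limma adjusted p = 0.000178), and the groups did not overlap. The co-receptor IL1RAP (-0.06) and the receptor antagonist IL1RN (-0.01) had limma adjusted p-values of 0.886 and 0.992. Among 31 other chemokines measured, 27 lay below the filter. Of the 4 tested, CCL26, an eosinophil attractant, fell. It had 9.13, 8.82 and 8.92 with the RNF43 siRNA label and 9.72, 9.73 and 9.65 with the control label, 1.67-fold lower (limma adjusted p = 0.000653), while CXCL11, CXCL16 and CCL5 did not pass the test.

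Among other IL1 family and processing genes, 10 of 20 were tested, of which 1 rose, 2 fell and 7 did not pass, with a median log2 difference of -0.36. The share called over all genes tested was 22.6%. IL18, an IL1 family cytokine cut by caspase-1 like IL1B, ran opposite to the brighter of the IL1A probe sets, which disagree. IL18 had 11.68, 11.81 and 11.67 on the arrays labelled RNF43 siRNA, against 10.98, 10.82 and 10.87 on the control arrays, 1.78-fold higher (limma adjusted p = 4.9e-05). AIM2, a DNA sensor that activates caspase-1, fell (1.87-fold lower, limma adjusted p = 0.00013). CASP4, an inflammatory caspase, fell by 0.43 on the log2 scale (limma adjusted p = 0.00692). The CASP4 call was lost without _x_at and _s_at probe sets (log2 difference -0.28, adjusted p = 0.102, range over alternatives 0.000491 to 0.102).

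The list of IL1 and TNF receptor signalling also holds the TNF receptors and the Toll-like receptors TLR2, TLR3 and TLR4. Of its 22 measured genes 21 were tested, of which 1 rose, 3 fell and 17 did not pass, with a median of -0.04. Over all genes tested, 22.6% were called in either direction. MYD88, the adaptor that IL1R1 recruits, rose (1.38-fold higher, limma adjusted p = 0.00229). IRAK2, a kinase in the same complex, fell (1.64-fold lower, limma adjusted p = 0.000437). IRAK2 had 9.48, 9.24 and 9.38 with the RNF43 siRNA label, against 10.10, 10.00 and 10.13 with the control label, so its groups did not overlap. The other genes that fell were TRAF3, an adaptor that restrains noncanonical NF-kappaB (log2 difference -0.65, limma adjusted p = 0.00397), and TRADD, the TNF receptor adaptor (-0.47, adjusted p = 0.0138). Averaging probe sets left MYD88 as the only call of the list: IRAK2, averaged with its dimmer probe sets, lay below the filter and was not tested, and the TRAF3 and TRADD calls ended, at adjusted p = 0.0572 for TRAF3 (range over alternatives 0.000439 to 0.0572) and adjusted p = 0.273 for TRADD (range 0.0058 to 0.273). The TRADD call was also lost without array 2 labelled RNF43 siRNA (adjusted p = 0.0621) and without control array 2 (adjusted p = 0.0626).

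Of 17 tested NF-kappaB subunits, IKK kinases and inhibitors, 1 rose, 1 fell and 15 did not pass, with a median of 0.05, where 22.6% of all genes tested were called in either direction. NFKB1, the p105/p50 subunit, fell (1.23-fold lower, limma adjusted p = 0.0128). NFKBIE, an inhibitor of NF-kappaB, had a log2 difference of 0.37 with a limma adjusted p = 0.0476, and that call was lost in 9 of 17 alternatives (range 0.00548 to 0.175). The other known NF-kappaB targets went both ways, with 4 that rose, 6 that fell and 9 that did not pass among 19 tested, and a median of -0.06. IL6, the acute-phase cytokine, had 9.81, 9.70 and 9.82 on the arrays labelled RNF43 siRNA and 10.43, 10.17 and 10.51 on the control arrays. It was 1.51-fold lower (limma adjusted p = 0.00233), and PTGS2, the inducible cyclooxygenase, was 1.41-fold lower (adjusted p = 0.00207). IER3, a stress survival gene, fell by 0.39 on the log2 scale (limma adjusted p = 0.0019), while CD83, a surface marker of mature dendritic cells, rose 1.49-fold (adjusted p = 0.00383). The plot of the related genes sets these differences beside each other.

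**Figure D4:**
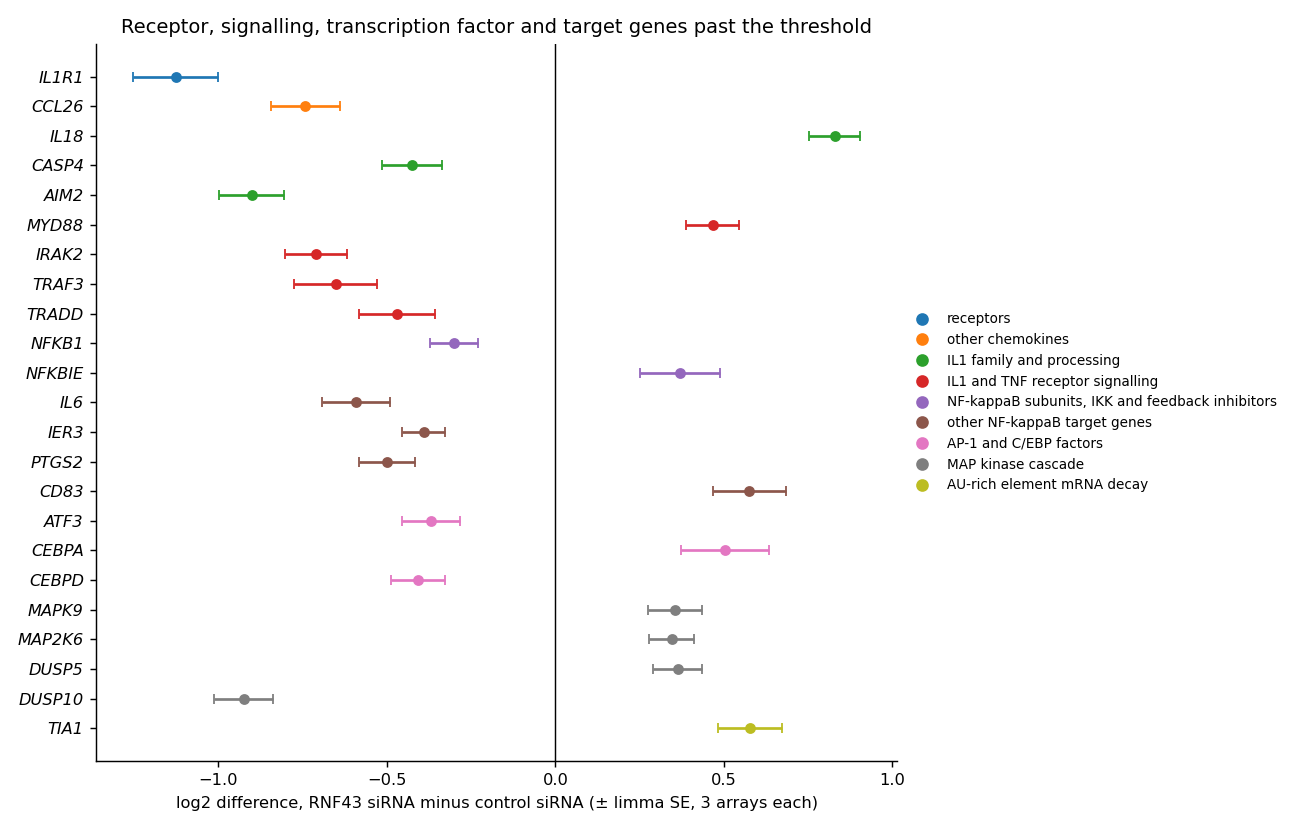
Log2 difference (arrays labelled RNF43 siRNA minus control arrays) with the limma SE for the named genes of the receptor, ligand and signalling lists. IL1R1, DUSP10 and AIM2 lie lowest, at -1.13, -0.93 and -0.90, and IL18 lies highest at 0.83.

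Of the AP-1 and C/EBP factors, 12 of 15 were tested, 1 rose, 2 fell and 9 did not pass, with a median of -0.02. Here and for the 2 lists that follow, the share called over all genes tested was 22.6%. ATF3, induced by stress (log2 difference -0.37, limma adjusted p = 0.0119), and CEBPD, an activator of acute-phase genes (-0.41, adjusted p = 0.00523), fell, and CEBPA, a factor of differentiated hepatocytes, rose (0.50, adjusted p = 0.0193). None of these calls held throughout. Averaging probe sets ended those of ATF3 (log2 difference -0.59, adjusted p = 0.164, range over alternatives 0.00341 to 0.164) and CEBPD (log2 difference -0.16, adjusted p = 0.603, range over alternatives 0.000746 to 0.603), and without _x_at and _s_at probe sets CEBPD was not tested. Leaving out array 2 labelled RNF43 siRNA or control array 2 ended those of ATF3 (adjusted p = 0.0537 and 0.0558) and CEBPA (adjusted p = 0.0843 and 0.0656), and leaving out array 3 labelled RNF43 siRNA ended that of CEBPA (adjusted p = 0.0604, range 0.00877 to 0.0843). The MAP kinase list had 16 tested genes, with 4 that rose, 2 that fell and 10 that did not pass, and a median of 0.07. DUSP10, a phosphatase of JNK and p38, fell. It had 9.35, 9.33 and 9.48 on the arrays labelled RNF43 siRNA and 10.34, 10.23 and 10.37 on the control arrays, 1.90-fold lower (limma adjusted p = 5.8e-05). MAPK9, which is JNK2 (0.36, adjusted p = 0.0101), MAP2K6, an activator of p38 (0.35, adjusted p = 0.00461), and DUSP5, an ERK phosphatase (0.36, adjusted p = 0.00583), rose in the same limma fit. The MAP2K6 call was lost on averaging probe sets (log2 difference 0.62, adjusted p = 0.0858) and without _x_at and _s_at probe sets (0.89, adjusted p = 0.113, range over alternatives 0.000526 to 0.113). Of 17 AU-rich element decay genes tested, 1 rose, none fell and 16 did not pass, with a median of 0.05. The gene that rose was TIA1, a translational silencer that binds such elements (1.49-fold higher, limma adjusted p = 0.00196), and averaging probe sets ended that call (log2 difference 0.27, adjusted p = 0.0878, range over alternatives 3.07e-05 to 0.0878). Across all 9 lists, 119 genes were tested, 13 rose, 18 fell and 88 did not pass, with a median log2 difference of -0.01. Over all genes tested, 11.1% were called lower and 11.5% higher, and nothing about the lists is read from these counts.

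**Figure D5:**
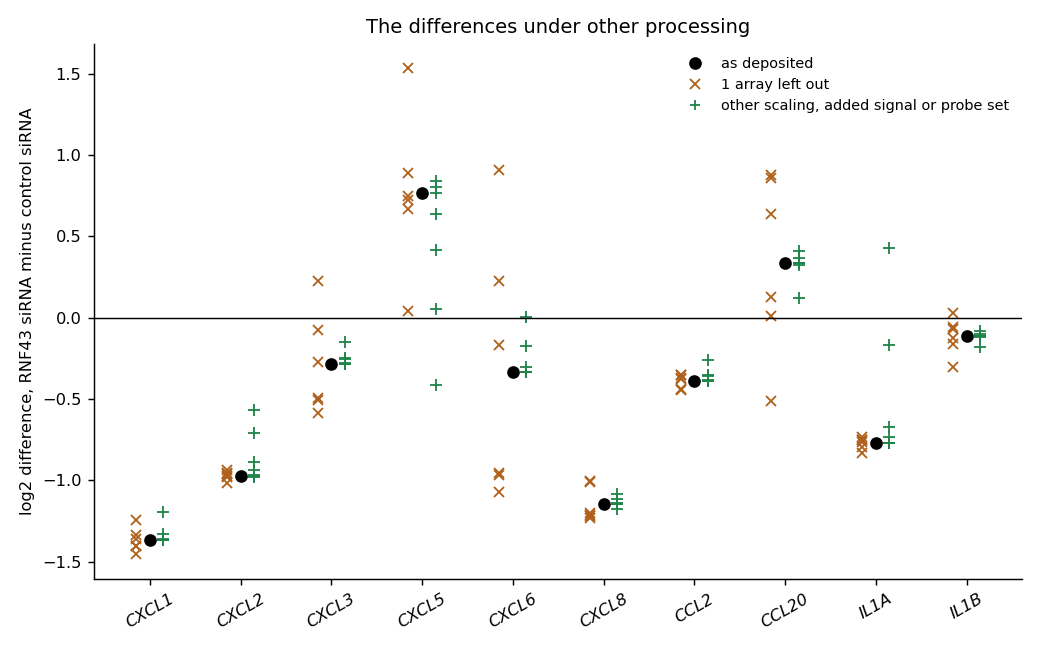
Log2 difference (arrays labelled RNF43 siRNA minus control arrays) of each member under the main setting and alternatives, with leave-one-out values apart from other settings. Array weights, other filters and the fit without an intensity trend are not drawn. CXCL1 and CXCL8 stay near or below -1 throughout, and IL1A reaches 0.43 where _x_at and _s_at probe sets are left out.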

How the data were processed

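Signals of 54613 probe sets were measured on 6 arrays, 3 with each siRNA label. The authors deposited log2 values made with MAS5, per the submitters' processing notes; version and scaling are not stated. Base 2 was inferred because it gave equal 2% trimmed linear means of 497.0 to 497.2 on every array. Of the probe sets, 41091 named 1 gene, 1801 several and 11721 none here, and 41037 matched a RefSeq gene ID.

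The values were used as given. Each gene took its brightest probe set that names it alone. Genes above the median of probe set means, and RNF43 in any case, entered limma 3.58.1 (R 4.3.3; lmFit, eBayes with an intensity trend), with Benjamini-Hochberg adjustment over 11853 genes, and the procedure was tested on simulated data. The named genes were the members with every probe set, RNF43, up to 4 called genes of smallest p per related list, all called receptors and other chemokines, and the 5 tested genes most like the members' mean and the 5 most like CXCL8. The members and lists were chosen with earlier results of these data known. Alternatives were other filters, scalings, probe set rules, array weights, an added linear signal of 1 or 64, a replicate block and each array left out. Array number limits the precision. Genes of a list with no probe set of their own were not analysed here.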

Additional observations from a re-analysis of the deposited data

How the results depend on the processing

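Of 11853 genes tested, 2684 were called, against 1587 when the probe sets of a gene were averaged, and 1741 to 2656 when each array was left out in turn (lowest without array 2 labelled RNF43 siRNA). Arrays of the same number were compared for pairing: their deviations from the group means correlated at 0.16, 0.08 and 0.27. Arrays of differing number correlated at -0.21 to 0.09, and 5 of the 6 arrays correlated best with their own number. The labels do not say whether equal numbers are pairs. The main fit left them unpaired, so its p-values take no account of any pairing. With a replicate block 3908 genes were called. For the related lists, calls in IL1 and TNF receptor signalling went to 1 with averaged probe sets. Calls among NF-kappaB subunits and inhibitors were 1 with averaged probe sets, no filter, no intensity trend or quantile scaling, and 1 to 2 with an array left out. Other NF-kappaB targets had 6 calls without _x_at and _s_at probe sets. AP-1 and C/EBP factors had 5 with the replicate block and 1 to 4 with an array left out. MAP kinase genes had 3 with averaged probe sets and 3 without _x_at and _s_at probe sets. AU-rich decay genes had 3 with array weights, 2 with median centring, 2 with averaged probe sets, 4 with the replicate block and 1 to 2 with an array left out. Over all 9 lists the calls stayed between 22 and 38, against 31. The median of the members ranged from -0.71 to -0.16 with an array left out. IL1A reversed to 0.43 without _x_at and _s_at probe sets, which removes its brighter probe set; no value exists there for CXCL8 and CCL2, all of whose probe sets end so. The causes of the other changes were not tested. With 3 arrays a group, differences of dim probe sets such as those of CXCL5, CXCL6 and CCL20 had SEs near or above their size, and MAS5 values near the low end carry little signal over background.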
